A study of Mus musculus with 23 samples.

Results

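Doxycycline was given for 3 days to ilet7 ES cells, a mouse embryonic stem (ES) cell line in which the drug switches on the let-7 microRNA, and the 3 treated libraries were set against 3 libraries of the same line left untreated. The comparison covered every gene whose TPM averaged 1 or more in these 6 libraries, which was 15884 of the 53715 genes listed. TPM is transcript abundance corrected for transcript length and scaled to one total per library. Genes are described as having risen or fallen where limma on log2(TPM + 1) gave an adjusted p below 0.05 (Benjamini-Hochberg over all 15884 genes), and as called where the log2 change also exceeded 1 in size. All changes below are log2 differences of TPM + 1, doxycycline minus control, so they understate the change of genes with low TPM.

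The study asks what LIN28 does in pluripotent cells, and its 23 RNA-seq samples also hold Lin28a-null, Lin28b-null and wild-type ES cells, iPS cells and embryo pools. Both ilet7 groups are ES cells derived from the inner cell mass, carry the inducible let-7, and grew on fibroblast feeders with LIF and 2 inhibitors (2i) that hold ES cells in the naive state. The labels say that feeder fibroblasts were depleted before lysis. The groups differ in doxycycline alone per the labels, and because no line without the inducible let-7 received the drug, effects of let-7 and of doxycycline itself cannot be told apart. The labels do not say that the 3 libraries of a group came from separate cultures, so p-values measure the spread between these libraries, which may be technical.

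LIN28A and LIN28B are RNA-binding proteins that bind let-7 precursors and block their maturation, which keeps mature let-7 scarce in ES cells. Let-7 in turn represses Lin28 messages, so the pair forms a double-negative loop. A microRNA directs a silencing complex to messages whose 3′ UTR pairs with its seed, bases 2 to 8, and such messages are translated less and degraded.

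The seed is shown here because every site count below rests on it. Of the 11 let-7 family names found in RefSeq (GRCm38.p6), 10 share the seed in capitals, and let-7j is the exception. The labels do not say which family member the line expresses.
mmu-let-7a-5p: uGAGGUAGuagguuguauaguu
mmu-let-7g-5p: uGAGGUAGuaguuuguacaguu
mmu-miR-98-5p: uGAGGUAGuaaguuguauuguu
mmu-let-7j: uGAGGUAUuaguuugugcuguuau

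The matching sites in messages are the 8mer CTACCTCA, the 7mer-m8 CTACCTC and the 7mer-A1 TACCTCA, searched on the sense strand of the longest annotated 3′ UTR of each coding gene and counted once per position, as the best type there. At least 1 such site was held by 2131 of 12950 tested coding genes with a 3′ UTR, or 16.5%. The sites below come from 4 genes that fell and 1 that did not, with the pairing bases in capitals and mm10 coordinates. Lin28a and Igdcc3 have 2 8mers each, Trim6 has 5 8mers of which the first 2 are shown, and the 8mers of Nr6a1 and Lin28b are the first in their UTRs.
Lin28a, chr4:134005189-134005210, minus strand: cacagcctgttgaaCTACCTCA
Lin28a, chr4:134004551-134004572, minus strand: agatcgccacaaacCTACCTCA
Igdcc3, chr9:65185708-65185729, plus strand: gtgactctcagcacCTACCTCA
Igdcc3, chr9:65185788-65185809, plus strand: gcccgaaagcactcCTACCTCA
Trim6, chr7:104233459-104233480, plus strand: tactgattatagatCTACCTCA
Trim6, chr7:104233504-104233525, plus strand: tactgattatagctCTACCTCA
Nr6a1, chr2:38727449-38727470, minus strand: gttgacaaagacaaCTACCTCA
Lin28b, chr10:45381022-45381043, minus strand: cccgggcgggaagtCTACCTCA

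Doxycycline left 241 genes called higher, or 1.52% of those tested, and 43 called lower, or 0.271%, together 1.79%. Without the fold limit, 2118 genes rose (13.3%) and 903 fell (5.68%). The balance between them depends on scaling, with 1489 rising and 1299 falling under quantile normalization and 1653 rising and 1475 falling under median-of-ratios scaling. Leaving out 1 library at a time gave 1137 to 1556 rising and 423 to 653 falling genes, with the fewest rising without doxycycline replicate 3 and the fewest falling without doxycycline replicate 1. The rises also dropped by over 1.5 times without doxycycline replicate 1 or control replicate 3, and the falls without any library other than doxycycline replicate 2. The 3 treated libraries lay above all 3 controls for 26.9% of genes and below all 3 for 14.1%. Over all genes the median change was 0.06. Libraries of one group correlated at 0.983 to 0.986 across genes on the log scale and libraries of different groups at 0.973 to 0.978. Genes that rose were spread over all levels, whereas the share that fell was 2.37% in the lowest quartile of mean TPM and 10.7% in the highest. Each library summed to nearly the same total, and since TPM values carry no depth, how precise the low ones are is not known. StringTie can list a gene at 0 that is expressed, and Spry1 is one to doubt, with 17.4, 0 and 0.262 TPM in doxycycline cells against 13.7, 0.147 and 14.8 TPM in control cells.

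**Figure D1:**
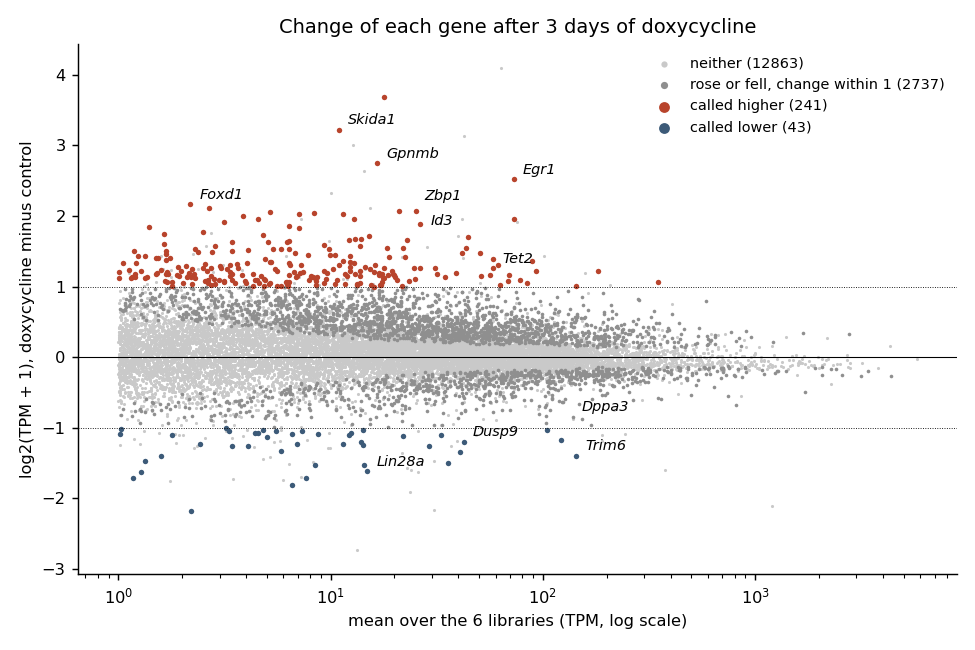
Change of each of the 15884 genes (log2(TPM + 1), doxycycline minus control) against its mean TPM over the 6 libraries on a log axis, with 1 point per gene. The 241 genes called higher reach well past 2, while the 43 called lower are fewer and mostly lie between -1 and -2. Pale points beyond 1 did not pass the test.

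Both groups looked like ES cells by their markers. Pou5f1, the core pluripotency factor also called Oct4, had 1490, 1580 and 1450 TPM in doxycycline cells against 1550, 1480 and 1430 TPM in control cells, and its change of 0.02 did not pass (adjusted p = 0.813, limma). Summed markers of some other lineages shifted with treatment. The summed level of 6 trophoblast markers was 172.6 to 185.5 TPM in doxycycline cells against 154.5 to 159.6 TPM in control cells, most of it Tfap2c, whose change did not pass, with Cdx2 and Elf5 under 1 TPM in every library. The sum of 5 primitive endoderm markers was 16.8 to 18.6 TPM in doxycycline cells against 10.5 to 11.3 TPM in control cells. Gata4 alone of the 5 rose, while Gata6, Sox17 and Pdgfra did not pass and Sox7 was under 1 TPM in every library. Neural markers summed lower, to 23 to 24.2 TPM in doxycycline cells against 34.5 to 36.9 TPM in control cells. Of these 4 markers Tubb3 alone fell, while Sox1 and Nes did not pass and Pax6 was under the filter. The mesoderm markers T, Mixl1 and Mesp1 each stayed under 1 TPM. Fibroblast markers were present in all 6 libraries and moved with treatment. Summed over 9 markers they reached 362.9 to 412 TPM in doxycycline cells against 245.6 to 310.1 TPM in control cells, so the groups did not overlap, and 5 of the 9 rose, with none of the 9 at 0. Col1a1, a fibrillar collagen, had 145, 127 and 131 TPM in doxycycline cells against 91.9, 114 and 100 TPM in control cells (0.40, adjusted p = 0.027, limma), a call that is lost without doxycycline replicate 1 or 3 or control replicate 1 or 3. Fewer cells of a type and less RNA per cell cannot be told apart in such bulk libraries. What part these markers have in the changes described below was not tested.

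Lin28a itself had 7.32, 6.26 and 6.94 TPM in doxycycline cells against 24.9, 20.4 and 23.7 TPM in control cells. The treated libraries lay close together and far below the controls, at 6.84 ± 0.539 against 23 ± 2.32 TPM (SD, n = 3 each). The fall was 1.61 ± 0.11 on the log2 scale (SE, adjusted p = 0.000552, limma), and it passed under every alternative tried. The gene lies on the minus strand of chromosome 4 (134003330 to 134018841), and both printed 8mers are in its 3′ UTR of 2775 bases.

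Lin28b did not follow it. The paralog had 3.55, 2.98 and 3.41 TPM in doxycycline cells against 2.63, 3.47 and 3.65 TPM in control cells, which overlap, and the change of 0.03 ± 0.14 (SE) did not pass (adjusted p = 0.91, limma), with a sign that turned under quantile normalization and median-of-ratios scaling. Its 3′ UTR holds 5 let-7 sites, one of them the 8mer shown above. The let-7 precursor genes gave no readout of the induction, since all 12 on the list were under the filter and mostly listed at 0 in these poly-A selected libraries. Mirlet7d, the one measured in all 6, had 0.407, 0.336 and 0.381 TPM in doxycycline cells against 0.429, 0.374 and 0.357 TPM in control cells.

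Genes with several let-7 sites were among the largest falls. Over all coding genes with a 3′ UTR that fell, 28 of 835 had at least 2 sites (3.35%). Of those that rose, 46 of 1905 did (2.41%). Of the 10 largest falls among called genes with non-overlapping libraries (clone names left out), 5 had at least 2 sites, namely Igdcc3, Lin28a, Nr6a1, Trim6 and Arid3b, while 3.11% of coding genes with a 3′ UTR had as many. Igdcc3, a transmembrane protein of the immunoglobulin family, had 2.31, 3.07 and 3.91 TPM in doxycycline cells against 12.5, 12.6 and 11.5 TPM in control cells (-1.71, adjusted p = 0.00137, limma). Its 2 8mers sit in a 3′ UTR of just 538 bases. Nr6a1, the orphan nuclear receptor GCNF that represses Oct4 during differentiation, has 8 sites and had 8.23, 5.73 and 6.96 TPM in doxycycline cells against 20.7, 21.7 and 22.9 TPM in control cells (-1.52, adjusted p = 0.00111, limma).

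Trim6, a RING-type ubiquitin ligase, had the highest level of these genes. It had 84.4, 74.7 and 77.0 TPM in doxycycline cells against 197, 207 and 220 TPM in control cells, a fall of 1.39 ± 0.066 on the log2 scale (SE, adjusted p = 0.000313, limma). Its 5 8mers stand exactly 45 bases apart, with nearly the same bases before each, as the pair printed above shows, and a 7mer-m8 follows 302 bases after the last. Arid3b, an AT-rich interaction domain DNA-binding protein, has 5 sites and no 8mer, and had 16.7, 16.4 and 17.1 TPM in doxycycline cells against 42.7, 41.1 and 40.6 TPM in control cells (-1.26, adjusted p = 0.000313, limma). In each of these genes the lowest control library was far above the highest treated one.

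Smaller falls were seen in other known let-7 targets. Trim71, the LIN41 protein whose nematode counterpart is a founding let-7 target, had 28.2, 25.5 and 30.4 TPM in doxycycline cells against 52.4, 51.1 and 51.5 TPM in control cells (-0.86, adjusted p = 0.00126, limma). Its 3′ UTR carries 6 sites, 4 of them 8mers. Arid3a fell by 0.75 on the log2 scale. Igf2bp1, an oncofetal RNA-binding protein, fell by 0.54, also without overlap. Pctp, the phosphatidylcholine transfer protein, which has at least 2 sites but is not on the target list, fell by 1.04. Among targets that act in the cell cycle, Ccnf, Rrm2 and Cdc25a changed by -0.87, -0.59 and -0.44 and passed, with 1 site each, though Cdc25a is lost without doxycycline replicate 3 or any one control. Dicer1, the enzyme that cuts microRNA precursors, had 28.7, 34.9 and 38.4 TPM in doxycycline cells against 47.1, 54.8 and 50.9 TPM in control cells and fell by 0.58 (adjusted p = 0.017, limma). Without control replicate 2 or 3 the adjusted p was 0.0551 or 0.051. No site was found in its longest 3′ UTR, although the gene is on the let-7 target list.

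**Figure D2:**
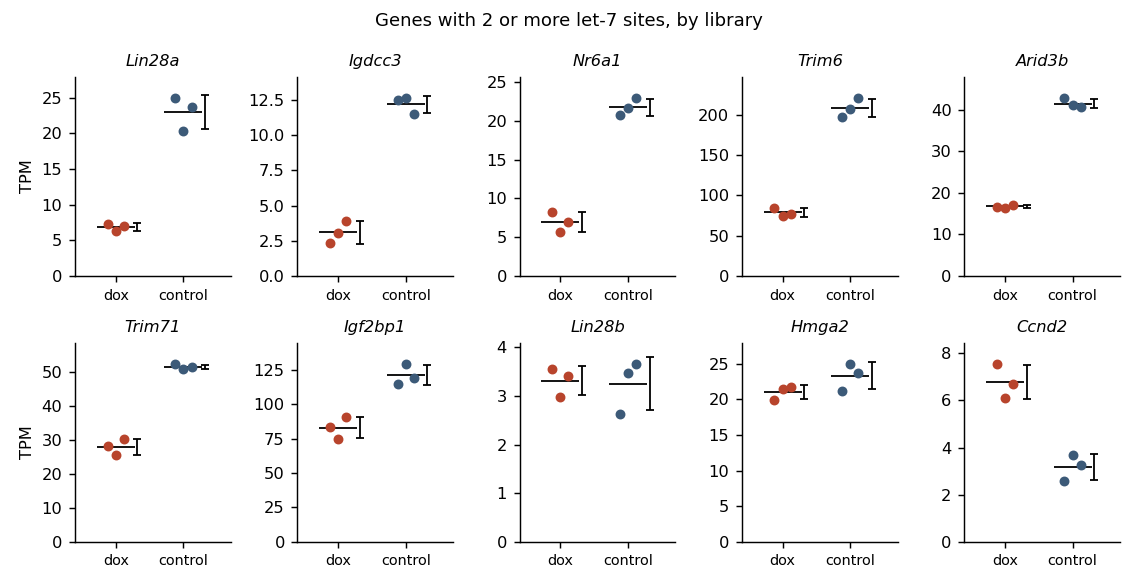
TPM of 10 genes with 2 or more let-7 sites in each library (points), with the mean (line) and SD (bar) of 3 doxycycline (left) and 3 control (right) libraries. The first 7 fell without overlap, Lin28b and Hmga2 overlap between groups, and Ccnd2 was higher in doxycycline cells.

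Several genes with sites did not fall. Hmga2, a chromatin protein often used as a let-7 reporter, has 7 sites and had 19.9, 21.4 and 21.7 TPM in doxycycline cells against 21.2, 24.9 and 23.7 TPM in control cells, which overlap (-0.14, adjusted p = 0.285, limma). Mycn has 2 sites and spread widely, at 29.0, 64.1 and 31.8 TPM in doxycycline cells against 39.4, 100 and 98.2 TPM in control cells, and its change of -0.89 did not pass (adjusted p = 0.196, limma). Igf1r, Igf2bp2, Igf2bp3, Nras and Hmga1 changed by between -0.11 and 0.18 and did not pass either.

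Some genes with sites rose. Stat3 and Rragd, with 2 sites each, and Tet2 and Tapbp, with 1 each, are described below, and none holds an 8mer. Ccnd2, a D-type cyclin, has 3 sites, all of the weakest 7mer-A1 type, and had 7.53, 6.08 and 6.70 TPM in doxycycline cells against 2.60, 3.70 and 3.25 TPM in control cells (0.90, adjusted p = 0.00822, limma). Nckap1l, a subunit of the actin-regulating WAVE complex in blood cells, rose by 1.03, Peg10, an imprinted gene of retrotransposon origin, by 0.97 and Cpeb4, a regulator of poly-A tails, by 0.95, each with 2 sites and no 8mer. The call of Cpeb4 is lost without any one doxycycline library or without control replicate 2. Ccnd1 rose by 0.31 with 1 site. In a fit over all 15 ES libraries, which shares one spread with 3 other groups, Ccnd2, Peg10 and Ccnd1 did not pass.

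The 16 oncofetal let-7 targets, a list of embryonic growth and RNA-binding genes, fell in 7 cases and rose in 1. The share that fell was 43.8%, against 5.68% of all genes, and the median was -0.41 beside 0.06 over all genes. On the wider list of 75 tested let-7 targets, 18 fell (24% of the list against 5.68% of all genes) and 10 rose (13.3%, the same share as of all genes), with a median of -0.04, and 68 of the 75 had a site. In the fit over all 15 ES libraries 18 fell and 1 rose. With 1 library left out 4 to 9 rose, the fewest without doxycycline replicate 1. Of the 10 that rose, Col1a1, Col1a2, Col3a1 and Thbs1 are matrix genes of the fibroblast list, whose markers rose as given above. Without these genes, all of which had risen, 18 of 71 fell (25.4%) and 6 rose (8.45%). That lower count of rises follows from which genes were left out. What part feeder fibroblasts had in their rise was not tested. Both lists were assembled with earlier results of these data known.

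Across all coding genes, the median change hardly differed by let-7 site overall and was lower with a site within each class of 3′ UTR length. The 2131 genes with a let-7 site had a median change of 0.0622 and the 10819 with none 0.0631, a difference of -0.001, while 7.65% of genes with a site fell against 6.21% with none. With 8mers alone the difference of medians was -0.052. Genes with sites have longer 3′ UTRs, with medians of 2328 and 930 bases, and genes with longer 3′ UTRs had higher changes whether or not they held a site. Within each quartile of UTR length the genes with a site had the lower median. The medians were -0.033 against -0.0147 in the shortest quartile, -0.0248 against 0.0532 in the second, 0.0403 against 0.0879 in the third and 0.0997 against 0.149 in the longest, each time with a site against without. Split by mean TPM in place of length, the difference was between -0.0331 and -0.000632.

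The share of genes that fell was higher with a site in all 4 quartiles of length. It was 20.7% with a site and 9.31% without in the shortest quartile (111 and 3125 genes), and 4.52% with a site and 2.39% without in the longest (1151 and 2088 genes). In the 2 quartiles between, it was 13.7% with a site against 7.21% without, and 8.39% with a site against 4.45% without. With an 8mer the shares were higher again, at 25%, 22.2%, 10.3% and 7.25% by increasing length, though the first rests on 20 genes. The sites of 2 other microRNAs served for comparison. For miR-124, a neural microRNA, the share was also higher with a site in all 4 quartiles, by less, at 11.9% with a site and 9.62% without in the shortest and 3.57% with a site and 2.97% without in the longest. For miR-294, a member of the main ES cell microRNA cluster, it was lower with a site in all 4, at 2.83% with a site and 3.35% without in the longest. These are descriptions, since genes are not replicates.

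**Figure D3:**
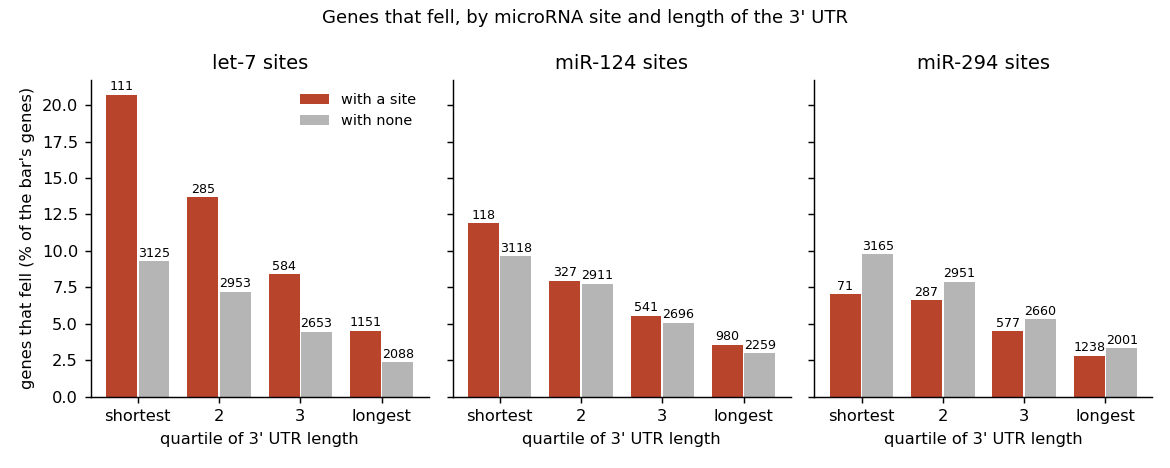
Share of genes that fell (% of the genes in each bar, whose number stands above it) with and without a site for let-7, miR-124 and miR-294, by quartile of 3′ UTR length. The let-7 pairs differ most, at 20.7% against 9.31% in the shortest quartile and 4.52% against 2.39% in the longest, and the share falls with length in every panel.

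The longest quartile was also examined library by library. Each gene's log2(TPM + 1) was taken relative to its mean over the 6 libraries, and the median of genes with a let-7 site was set against that of genes with none. The difference was -0.026, -0.027 and -0.018 in doxycycline libraries against 0.021, 0.027 and 0.022 in control libraries. For genes with at least 3 sites it was -0.062, -0.088 and -0.084 in doxycycline libraries against 0.067, 0.104 and 0.040 in control libraries (74 genes). For miR-294 sites it was 0.008, -0.003 and 0.008 in doxycycline libraries against -0.015, -0.000 and -0.001 in control libraries, which overlap. In this quartile the let-7 differences were small, with groups that did not overlap. Over genes of all lengths they did overlap, at -0.001, -0.015 and 0.007 in doxycycline libraries against -0.030, 0.013 and 0.021 in control libraries for genes with at least 1 site.

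The medians by site type and number, not split by length unless stated, were lowest for genes with 2 or more 8mers. Genes with only 7mer-A1 sites had a median of 0.09 (791 genes), those with a 7mer-m8 but no 8mer 0.0551 (869) and those with an 8mer 0.0106 (471). Genes with 1 site had a median of 0.0616, with 2 sites 0.0737 and with 3 or more 0.00915, against 0.0631 with none, so the class with 2 sites was not lower. With 2 or more 8mers it was -0.171 over 27 genes, of which 8 fell (29.6%). With 4 or more sites of any type the median was -0.0391, and 8 of 26 genes fell (30.8%). With 3 or more sites 8 of 80 fell (10%), so every one of these had at least 4. With 2 sites 6.19% fell, against 6.45% of all coding genes with a 3′ UTR. Genes with 3 or more sites had a median 3′ UTR length of 4778 bases. In the longest quartile of length the median was 0.149 with no site, 0.0598 with an 8mer and 0.00915 with 3 or more sites. Of the 35 coding genes called lower that have a 3′ UTR, 28.6% held a site and 17.1% at least 2. Of the 182 called higher, 9.89% held a site and 0.549% at least 2, against 16.5% and 3.11% of all.

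Some falls of similar size were in genes with 1 site or none. Gpx6, a glutathione peroxidase, had 4.40, 4.24 and 3.03 TPM in doxycycline cells against 13.5, 12 and 13.6 TPM in control cells (-1.53, adjusted p = 0.00135, limma). Palm3, a paralemmin, Rgcc, a regulator of the cell cycle, and Dnaic1, an axonemal dynein chain, passed with changes of -1.49, -1.35 and -1.33. Ggcx, the vitamin K-dependent carboxylase, had 0.354, 0.240 and 0.557 TPM in doxycycline cells against 1.93, 4.65 and 1.86 TPM in control cells, and its call is lost without any one doxycycline library. Palm3 has 1 let-7 site and the other 4 have none.

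The 10 largest rises, clone and model names again left out, hold 1 site among them, in Skida1, a SKI/DACH domain protein that also leads them. The predicted gene Gm21982, chosen after its values were seen, changed by more, at 31.6, 33.4 and 35.3 TPM in doxycycline cells against 0.672, 0.778 and 5.41 TPM in control cells. Skida1 had 18.5, 21.1 and 22.2 TPM in doxycycline cells against 1.38, 0.898 and 1.73 TPM in control cells (3.22 ± 0.16 SE, adjusted p = 0.000313, limma). Gpnmb, a transmembrane glycoprotein of melanosomes and lysosomes, had 33.5, 29.0 and 26.3 TPM in doxycycline cells against 3.45, 3.31 and 3.86 TPM in control cells (2.75, adjusted p = 0.000313, limma). Foxd1, a forkhead factor, had 3.31, 3.81 and 5.54 TPM in doxycycline cells and was close to silent in control cells, with 0.164, 0.171 and 0.108 TPM. Ano1, a calcium-activated chloride channel, rose by 2.11, Pof1b, an actin-binding protein of epithelia, by 2.04 and Tmem266, a voltage-sensor protein, by 2.00. In all of these the groups were far apart relative to their spread.

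Immediate early genes respond to signals within minutes without new protein synthesis. Of 20 such genes 12 rose (60%, against 13.3% of all genes) and 1 fell (5%, against 5.68%), with a median of 0.43. Egr1 had 96.8, 115 and 164 TPM in doxycycline cells against 21.9, 18.6 and 21.2 TPM in control cells (2.52, adjusted p = 0.000827, limma). Fos had 207, 244 and 312 TPM in doxycycline cells against 124, 92.5 and 106 TPM in control cells (1.22, adjusted p = 0.00469, limma). Jun and Atf3 rose by 1.10 and 0.83, and Cyr61 fell by 0.23, though not without doxycycline replicate 1 or control replicate 2. Egr1 and Fos were highest in the same treated library, replicate 3, while the other treated libraries still exceeded all controls.

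Feedback genes of the ERK pathway, a list added after the values were seen, were higher in doxycycline cells in 9 of 22 cases. That was 40.9%, against 13.3% of all genes. Spry4, a Sprouty inhibitor of receptor signalling, had 5.04, 5.03 and 6.60 TPM in doxycycline cells against 0.849, 0.641 and 0.685 TPM in control cells (1.92, adjusted p = 0.000964, limma). Spry2 and Spred1 rose by 0.55 and 0.45, the second not without doxycycline replicate 1 or 3. Dusp9, a phosphatase that removes ERK activation and was also chosen after its values were seen, went the other way, at 24.9, 27.3 and 23.8 TPM in doxycycline cells against 59.2, 59.5 and 59.3 TPM in control cells (-1.20, adjusted p = 0.000373, limma).

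Interferon-stimulated and antigen presentation genes rose in 27 of 41 cases, 9 of them called higher, and fell in 1, with a median of 0.57. The share that rose was 65.9%, against 13.3% of all genes. Zbp1, a sensor of Z-form nucleic acids, had 39.2, 34.3 and 30.5 TPM in doxycycline cells against 6.78, 6.78 and 8.89 TPM in control cells (2.07, adjusted p = 0.000552, limma). Rsad2 (viperin), Isg15 and Usp18, classic interferon-response genes, rose by 1.64, 1.63 and 1.59. The peptide-loading factor Tapbp had 111, 122 and 111 TPM in doxycycline cells against 53.7, 54.1 and 55.9 TPM in control cells (1.06, adjusted p = 0.000323, limma). B2m, the light chain of class I molecules, rose by 0.38, and both were chosen after their values were seen. Psmb10, an immunoproteasome subunit, fell by 0.72. The fibroblast and feeder list moved with it, with 20 of 40 members higher (50%), 1 lower and a median of 0.45. The 20 became 10 without doxycycline replicate 1 and 12 or 13 without doxycycline replicate 3 or control replicate 1 or 3. In the fit over all 15 ES libraries 11 of the 41 interferon and antigen genes and 0 of the 40 fibroblast genes passed as higher.

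Naive pluripotency genes rose in 14 of 29 cases (48.3%, against 13.3% of all genes) and fell in 2, with a median of 0.22. Klf4 had 719, 744 and 764 TPM in doxycycline cells against 437, 409 and 440 TPM in control cells (0.79, adjusted p = 0.000386, limma). Stat3 and Socs3, the effector of LIF and its feedback inhibitor, rose by 0.69 and 0.64, Zfp42 (Rex1) by 0.39 and Nanog by 0.22. Tet2, an enzyme that oxidizes methylated cytosine, had 71.3, 93.3 and 83.1 TPM in doxycycline cells against 27.8, 36.4 and 37.3 TPM in control cells (1.26, adjusted p = 0.00259, limma). Sox2 changed by -0.08 and did not pass. On a list of primed and formative pluripotency genes, 5 of 23 rose (21.7%) and 2 fell (8.7%), with a median of 0.145. With 1 library left out 1 to 4 of these rose. The core pluripotency list split, with 4 of 12 rising and 4 falling (33.3% each).

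Dppa3 (Stella), a maternal factor that protects DNA methylation, was the main exception among the naive genes. It had 97.0, 100 and 98.7 TPM in doxycycline cells against 187, 180 and 167 TPM in control cells (-0.84, adjusted p = 0.000538, limma), and it holds no let-7 site. Dppa5a fell by 0.25. Of 30 genes of TGF-beta, Nodal and BMP signalling, 5 rose (16.7%, against 13.3% of all genes) and 4 fell (13.3%, against 5.68%). The ligand Nodal and the co-receptor Tdgf1 rose by 0.23 and 0.29, while the Nodal antagonists fell, with changes of -1.26 for Lefty1 and -0.97 for Lefty2. Nodal is lost without doxycycline replicate 1 or 3 or control replicate 3, and none of the 4 passed in the fit over all 15 ES libraries. Fst, which sequesters activin, had 64.4, 59.1 and 62.1 TPM in doxycycline cells against 19.5, 22.2 and 23.3 TPM in control cells, and Inhbb, an activin subunit, rose by 1.48. Lefty2, Fst and Inhbb were chosen after their values were seen. Id3 and Id1, targets of BMP signalling, rose by 2.07 and 0.82.

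**Figure D4:**
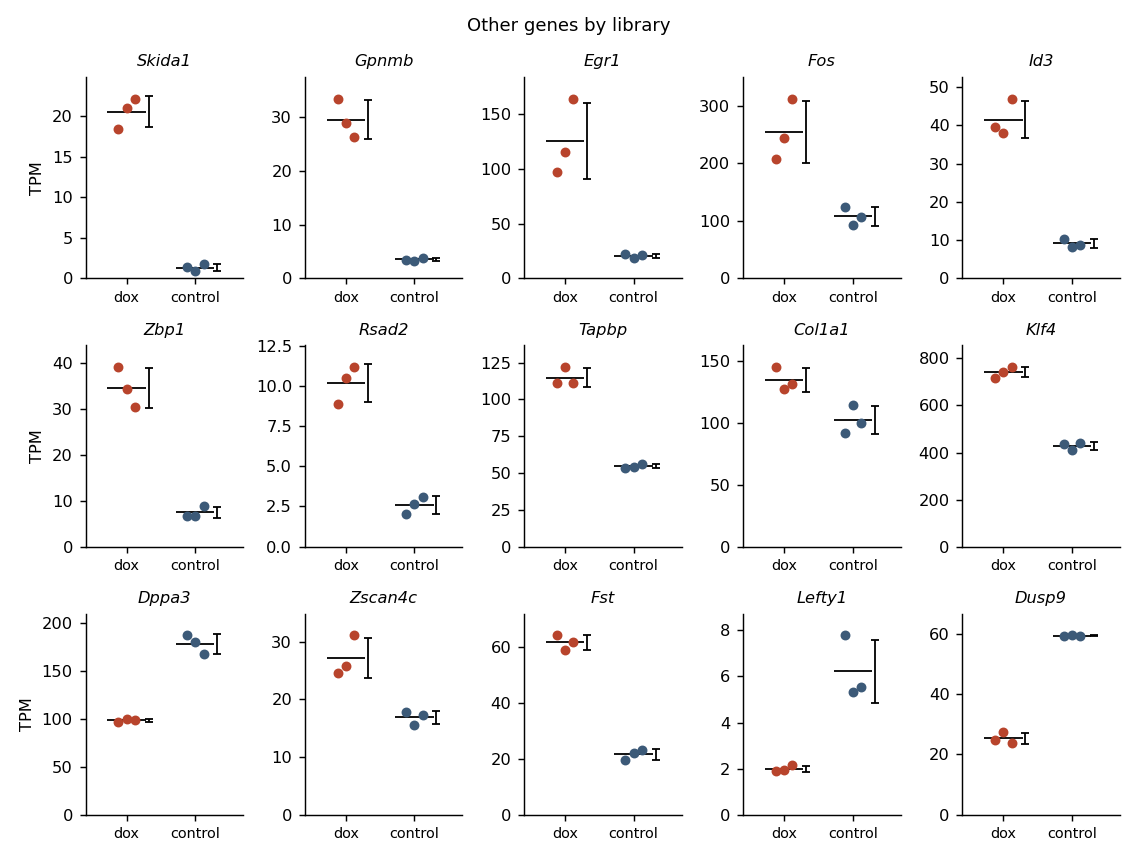
TPM of 15 further genes in each library (points), with the mean (line) and SD (bar) of 3 doxycycline (left) and 3 control (right) libraries. Dppa3, Lefty1 and Dusp9 were lower in doxycycline cells and the other 12 higher, with no overlap in any of the 15.

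Genes of the 2-cell (2C) embryo, which a small share of ES cells expresses at any time, rose in 35 of 40 cases and fell in none, with a median of 0.81. The share that rose was 87.5%, against 13.3% of all genes. In the fit over all 15 ES libraries 9 passed, and leaving out 1 library left 24 to 28. The size differed within the Zscan4 family, the best-known one. Zscan4a, chosen after its values were seen, had 30.4, 40.2 and 42.8 TPM in doxycycline cells against 14.4, 14.6 and 16.2 TPM in control cells (1.26, adjusted p = 0.00218, limma). Zscan4c had 24.5, 25.8 and 31.1 TPM in doxycycline cells against 17.8, 15.6 and 17.3 TPM in control cells (0.65, adjusted p = 0.00909, limma), and Zscan4d rose by 0.66. In the fit over all 15 ES libraries their adjusted p was 0.521 and 0.597. Tcstv1 had 13.5, 15.2 and 16.3 TPM in doxycycline cells against 5.75, 3.43 and 4.57 TPM in control cells (1.54, adjusted p = 0.00243, limma). Usp17lc, a deubiquitinase, rose by 1.58. These families are near-identical copies and uniquely mapped reads alone were kept, so the split between copies is uncertain and members are not independent. Of the Dux genes that activate 2C genes, Duxf2, Duxf3 and Duxf5 were listed at 0 in all 6 libraries, and Duxf4 at 0.0481, 0.0436 and 0.0927 TPM in doxycycline cells and at 0 in control cells.

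Lysosome and v-ATPase genes, a list added after the values were seen, rose in 22 of 49 cases and fell in none, with a median of 0.21. The share that rose was 44.9%, against 13.3% of all genes. Between 11 and 15 rose when any 1 library was left out. Mitf, a transcription factor of lysosome and melanosome genes, had 50.2, 54.3 and 64.6 TPM in doxycycline cells against 29.6, 32.4 and 34.1 TPM in control cells (0.79, adjusted p = 0.00448, limma), and its relative Tfeb rose by 0.49. Rragd, a lysosomal GTPase, rose by 0.80 and Atp6v1b1, a proton pump subunit, by 1.95, whereas Lamp1 and Ctsd, abundant lysosomal proteins, rose by 0.25 and 0.23, the second not without doxycycline replicate 1 or 3 or control replicate 1 or 3. Gpnmb is also on this list, which was drawn up in view of its rise.

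Most nuclear genes for ribosomes and respiration did not pass, and those that did mostly fell. Of 88 cytosolic ribosomal protein genes, 16 fell (18.2%, against 5.68% of all genes) and 1 rose, with a median of -0.12. Mitochondrial ribosomal proteins and nuclear-encoded respiratory chain genes had the same median, with 9 of 76 (11.8%) and 20 of 95 (21.1%) falling. Among all genes in the highest quartile of mean TPM, 10.7% fell. Rpl26 had 1430, 1450 and 1400 TPM in doxycycline cells against 2090, 1950 and 2000 TPM in control cells (-0.50, adjusted p = 0.000896, limma). The number of cytosolic ribosomal genes that fell depends on scaling, at 4 with quantile normalization and 35 with median-of-ratios scaling, and at 2 to 15 when 1 library is left out. The falls were 2 to 9 on the mitochondrial list and 4 to 19 on the respiratory list with 1 library left out. Doxycycline replicate 2 is the one library whose removal left all 3 of these counts nearly as they were. Genes encoded by mitochondrial DNA did not fall. Of 13 such genes 2 rose (15.4%, against 13.3% of all genes) and 0 fell, with a median of 0.31. With 1 library left out 1 to 9 of them rose. Of 78 nucleolar and ribosome biogenesis genes, 6 fell (7.69%) and 2 rose, with a median near 0, and 16 fell with median-of-ratios scaling. Of 44 proliferation and replication genes, 10 fell (22.7%), led by Rrm2, Cdt1 and Cdc25a, and 2 rose. Removing any library but doxycycline replicate 2 took the 10 down by over 1.5 times, as far as 3, and median-of-ratios scaling gave 17. Of 50 p53 genes, 10 fell (20%, against 5.68% of all genes) and 7 rose (14%, against 13.3%), and 4 rose without doxycycline replicate 1. Trp53, Mdm2 and Cdkn1a changed by -0.10, -0.28 and 0.10, and Mdm2 alone of these passed (adjusted p = 0.00702, limma). The nucleolar genes Ncl and Fbl did not pass, and Npm1 fell by 0.17, which did not pass under quantile normalization or without doxycycline replicate 1.

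**Figure D5:**
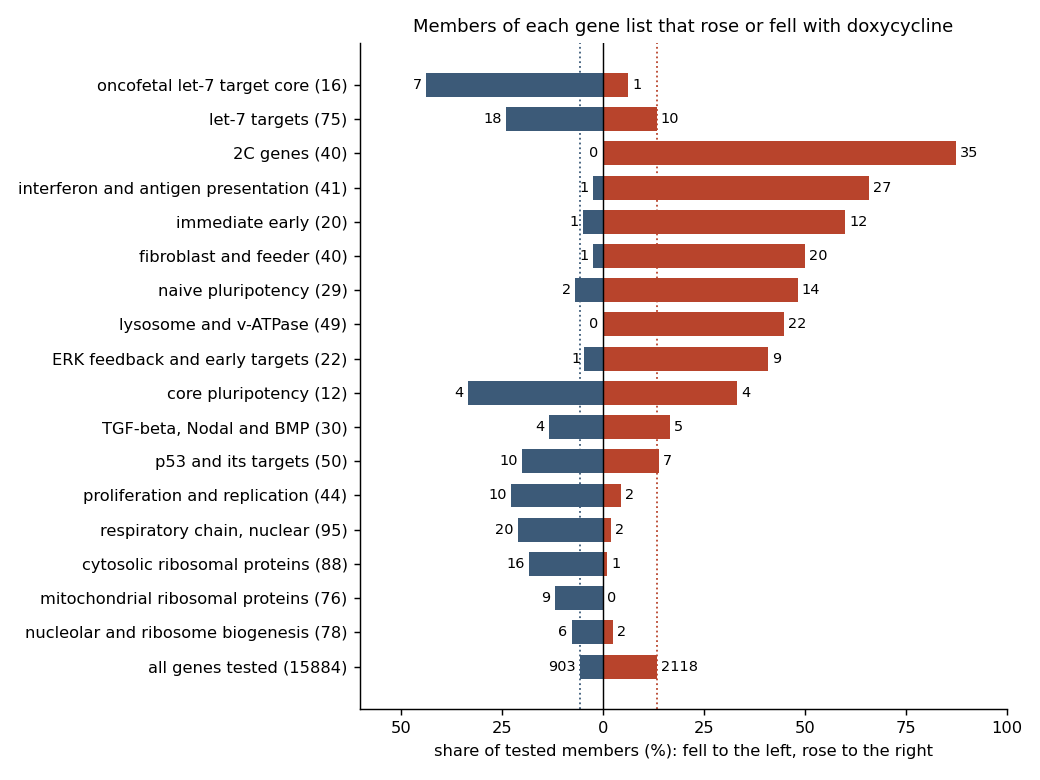
Share of each list's tested members (number in brackets) that rose (right, red) or fell (left, blue), with counts at the bar ends and dotted lines at the shares over all 15884 genes. The 2C list has the highest share of rises, 35 of 40, and the oncofetal let-7 targets the highest share of falls, 7 of 16.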

How the data were processed

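RNA from 3 doxycycline and 3 control ilet7 ES cell libraries was poly-A selected and sequenced. The values used are the TPM that the authors deposited, made with CASAVA 1.8, Trimmomatic, HISAT2 on mm10, Picard duplicate removal, unique reads alone and StringTie over GENCODE M18. TPM holds no counts or depth, so edgeR and DESeq2 were not run. Discarding duplicates and multi-mapping reads lowers short, abundant and multicopy genes.

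Samples were grouped by their GEO labels. After a filter on mean TPM (at least 1), limma 3.58.1 was run in R 4.3.3 on log2(TPM + 1) (variance trend, 2 groups, 6 libraries, two-sided, Benjamini-Hochberg adjustment). The same fit was also run on simulated data, with an outcome not given here. Summaries used Python 3.11, pandas 2.3.3 and numpy 2.4.6. Identifiers were matched to GENCODE M21 (53620 of 53715), which restored 27 symbols that had become dates and gave the 3′ UTRs. The let-7 and miR-294 sequences are from RefSeq, and miR-124 sites were searched as GTGCCTT, letters set by hand. The iPS cell and embryo tables were not used here.

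The members and lists were chosen with earlier results of these data known. Genes named are a fixed set of let-7 targets and stem cell genes, the 10 largest rises and falls without overlap, those with at least 2 let-7 sites (8 largest falls, 3 largest rises), and up to 4 members per list plus the strongest opposite one. Exceptions are marked as chosen after their values were seen, which also holds for Spry1, Mitf, Tfeb, Rragd, Atp6v1b1, Lamp1, Ctsd, Dppa5a and Col1a1. Alternatives varied the pseudocount (0.1, 0.5), the filter (5 TPM, none), the scaling, the variance trend, the libraries fitted, a replicate block, the site definition and each library left out.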

Additional observations from a re-analysis of the deposited data

How the results depend on the processing

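Lin28a kept its direction and passed under all alternatives, at -1.73 to -1.55, with adjusted p of 0.000503 to 0.00887 (limma). Against 241 genes called higher and 43 lower, a pseudocount of 0.1 gave 377 and 79 and a mean of at least 5 TPM 140 and 27, while leaving out 1 library gave 199 to 238 and 38 to 47. Against 2118 genes that rose and 903 that fell, 1475 fell with median-of-ratios scaling and 547 when the fit took in all 15 ES libraries, and leaving out 1 library gave 1137 to 1556 rising and 423 to 653 falling. Deviations of same-numbered libraries correlated at -0.0198, -0.0615 and 0.0161, which gave no sign that replicate numbers pair the samples. With 3 libraries per group such values cannot exclude a pairing. Under a replicate block 1231 genes rose and 429 fell, and no other of these counts moved by over 1.5 times. The median difference by let-7 site was -0.001, -0.052 for 8mer sites alone and -0.018 to 0.005 with 1 library left out. The sign turned for genes near 0. Hmga1 was at -0.04 with median-of-ratios scaling and -0.06 to 0.17 with 1 library left out. Lin28b was at -0.10 with quantile normalization, -0.02 with median-of-ratios scaling and -0.08 to 0.10 with 1 library left out. Pou5f1 was at -0.05 with median-of-ratios scaling and -0.02 to 0.05 with 1 library left out. Of 214 named genes, 69 lost their call with all 15 ES libraries, 52 with the block, 19 with quantile normalization, 9 with median-of-ratios scaling and 26 to 57 with 1 library left out. The cause was not tested.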

Other observations

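Some genes of other lineages changed. Krt8, a keratin of simple epithelia and trophoblast, had 23.5, 23.3 and 23.5 TPM in doxycycline cells against 12.1, 9.42 and 11.7 TPM in control cells (1.03, adjusted p = 0.00186, limma), and on the trophoblast list 6 of 16 genes rose (37.5%, against 13.3% of all genes) and 3 fell. Without doxycycline replicate 3 the 6 became 3. Gata4, a primitive endoderm factor, had 10.4, 10.0 and 10.6 TPM in doxycycline cells against 6.67, 6.11 and 6.46 TPM in control cells (0.61, adjusted p = 0.00574, limma), with 5 of 16 genes of its list rising (31.2%) and 1 falling. The neural list split, with 3 of 10 rising (30%) and 2 falling (20%, against 5.68% of all genes). Its transcription factors Olig1 and Olig2 rose by 0.74 and 0.63, while Tubb3, a neuronal tubulin, had 10.3, 10.3 and 9.85 TPM in doxycycline cells against 21.6, 20.4 and 19.4 TPM in control cells (-0.94, adjusted p = 0.00103, limma).

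Replication-dependent histone genes had a median change of -0.39 over 30 genes, but 1 rose and 0 fell, and their summed level overlapped, at 78.7 to 102.4 TPM in doxycycline cells and 87.1 to 192.3 TPM in control cells. Lin28a transcript was lower in doxycycline cells (6.26 to 7.32 TPM) than in the 3 Lin28a-null ES libraries, which had 14.6, 21 and 15.8 TPM. Wild-type ES libraries had 31.5, 61.2 and 32 TPM and ilet7 control libraries 24.9, 20.4 and 23.7 TPM. These are transcript levels, which do not give the amount of LIN28A protein in either line.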
